A study of Mus musculus with 12 samples.

Results

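The conventional actins of the mouse are 6 genes, taken by symbol from a table of raw read counts for 49568 genes. Acta1 and Actc1 encode the skeletal and cardiac actins of the sarcomere, Acta2 and Actg2 the smooth muscle actins, and Actb and Actg1 the cytoplasmic actins. All 6 were among the 14712 genes with enough counts to be tested. RNA of cardiomyocytes from male mice was sequenced in 12 libraries, 3 in each of 4 groups. The first factor was genotype. The dKO mice are labelled MHC-MerCreMre/+; Mrtf-a-/-; Mrtf-bflox/flox, so that Mrtf-a is missing from every cell of the mouse and Mrtf-b is removed where the MHC promoter drives Cre, which is in cardiomyocytes. The control mice are labelled alphaMHC-MerCreMre/+ and carry the same kind of Cre transgene with both factors intact. Mice of both genotypes received tamoxifen, which activates this Cre, on 3 days, 30 ug/g each time, when they were 8 weeks old. The second factor was surgery. TAC is a narrowing of the aorta, so that the left ventricle pumps against pressure, and the sham operation leaves the aorta open. Cells were isolated 7 days after surgery at 11 weeks of age. The groups were therefore dKO TAC, dKO sham, control TAC and control sham. That the libraries of a group came from separate animals is not stated in the labels, and p-values measure the spread between these libraries, whatever its source.

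Actin monomers join head to tail into filaments. In the cardiomyocyte sarcomere these are the thin filaments that myosin pulls on, built mainly of cardiac actin in the adult mouse heart, while skeletal actin is a familiar marker of the fetal heart and of the heart under load. The factors missing in dKO mice, MRTF-A and MRTF-B, bind unpolymerised actin. When monomers are used up by polymerisation these factors are released to the nucleus, where they join serum response factor, SRF, on a DNA element called the CArG box. Several actin genes are classical targets of SRF, so the actin family both controls these factors and is controlled by them. The question that the design poses for this family is which actin RNAs follow the load, which depend on the MRTFs, and how the makeup of total actin shifts.

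The actin genes are so alike that the counting of their reads needs a check. Between coding sequences in GENCODE release M21 on GRCm38, base identity was highest for Actb and Actg1 at 88.7%, reached 86.2% for Acta1 and Actc1, and was lowest at 81.5% for Actc1 and Actg1 and for Acta2 and Actg1. The last 60 coding bases show how such near copies still differ. They are given 5′ to 3′ on the coding strand, and capitals mark bases that differ from Acta1.
Acta1: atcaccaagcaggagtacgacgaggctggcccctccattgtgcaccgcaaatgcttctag
Actc1: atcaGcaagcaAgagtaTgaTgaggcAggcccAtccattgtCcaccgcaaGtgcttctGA
Acta2: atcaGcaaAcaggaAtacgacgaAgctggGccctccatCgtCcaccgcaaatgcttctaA
Actb: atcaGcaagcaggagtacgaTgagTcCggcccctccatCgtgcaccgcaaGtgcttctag
Actg1: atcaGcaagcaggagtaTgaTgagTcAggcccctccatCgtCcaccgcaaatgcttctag
Actg2: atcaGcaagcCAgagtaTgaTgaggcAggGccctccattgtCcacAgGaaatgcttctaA
In this stretch Actb differs from Acta1 at 6 bases, Actg1 at 7, Acta2 at 8, Actc1 at 10 and Actg2 at 11. Reads were 100 nt long. No window of 100 bases was identical between any pair of actin transcripts, and the closest windows of Acta1 and Actc1 differed at 4 bases, those of Acta1 and Actb at 3. Actg1 stands apart, because 946 of its 1853 windows, 51.1%, are identical to a window of another annotated gene, all of them actin pseudogenes or predicted genes such as Actg-ps1. The sources used here do not say how reads with several equal matches were counted, so the level of Actg1 is uncertain. The copies found in the count table took few reads over all libraries: 59 for Gm12715, 54 for Gm8399, 26 for Actg-ps1 and 10 for Gm6375. Whether shared reads were left out of Actg1 was not tested. For Actb 20 of 1821 windows, 1.1%, were shared with another gene, and for the remaining actins none.

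Upstream sequence was compared because the factors removed in dKO mice act through SRF. The CArG box was searched as CC, then 6 bases that are each A or T, then GG. This motif reads the same on both strands. A CArG-like site was defined by 1 other base among those 6. Windows of 250 bases before the RefSeq start were matched (GRCm38.p6) for 4 of the 6 genes, and Actb and Actg2 were not analysed here. The stretches that hold the sites are printed 5′ to 3′ on the minus strand, on which all these genes lie, with CArG boxes and CArG-like sites in capitals, to show how the sites are placed in both sarcomeric actins, 1 smooth muscle actin and 1 cytoplasmic actin. These windows count from the RefSeq start, and for the shown genes other than Acta1 GENCODE M21 holds transcripts that begin farther upstream. The Actc1 stretch lies in an intron of such a transcript and both Acta2 stretches in an untranslated first exon, so that they fall inside the annotated spans of these genes. The stretch of Acta1 lies outside its gene span, and that of Actg1 overlaps a first exon only at its 3′ end.
Acta1, chr8:123894806-123895025: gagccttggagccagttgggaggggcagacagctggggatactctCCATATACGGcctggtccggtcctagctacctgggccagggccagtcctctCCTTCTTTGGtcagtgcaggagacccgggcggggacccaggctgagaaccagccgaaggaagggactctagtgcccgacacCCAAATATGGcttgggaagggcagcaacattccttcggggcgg
Actc1, chr2:114052906-114053125: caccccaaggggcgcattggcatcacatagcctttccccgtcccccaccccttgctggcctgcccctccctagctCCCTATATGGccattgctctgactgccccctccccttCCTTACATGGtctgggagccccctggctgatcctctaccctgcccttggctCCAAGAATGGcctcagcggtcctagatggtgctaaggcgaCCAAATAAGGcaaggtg
Acta2, chr19:34255438-34255467: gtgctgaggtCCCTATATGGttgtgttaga
Acta2, chr19:34255388-34255417: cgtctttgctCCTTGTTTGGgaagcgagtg
Actg1, chr11:120348526-120348745: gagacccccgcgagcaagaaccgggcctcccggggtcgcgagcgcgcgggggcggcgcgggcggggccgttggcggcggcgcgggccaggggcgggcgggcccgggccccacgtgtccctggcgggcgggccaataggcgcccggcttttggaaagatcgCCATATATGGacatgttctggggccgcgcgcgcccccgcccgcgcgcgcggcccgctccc
A CArG box began 73 bases before the start of Acta1, 47 before that of Actc1 and 90 before that of Actg1, and none lay in the window of Acta2. Acta1 also had CArG-like sites at 205 and 154 bases, Actc1 at 175, 138 and 87, and Acta2 at 84 and 34. Among 32851 windows of the same length 1.47% held a CArG box, 7.24% a CArG-like site and 8.59% either. These matches describe letters in a window and do not show that SRF binds there.

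**Figure D1:**
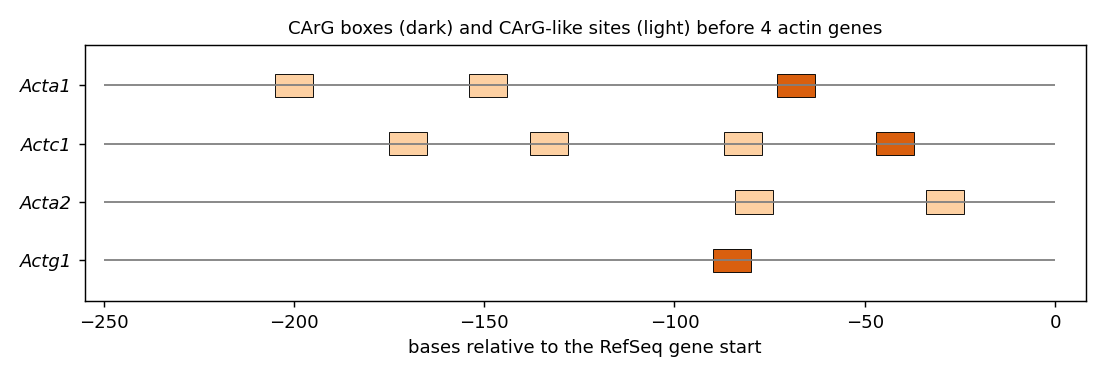
Positions of CArG boxes (dark) and CArG-like sites (light) in the 250 bases before the RefSeq start of 4 actin genes, in bases relative to the start. Acta1, Actc1 and Actg1 each have 1 CArG box, at 73, 47 and 90 bases, and Acta2 has CArG-like sites at 84 and 34 bases.

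Library totals lay between 20082000 and 29675212 counts, so that the actins other than Actg2 were measured from at least 146 counts in every library. The targeted Mrtf-a, named Mkl1 in the table, had 2.15 to 3.20 CPM in the dKO libraries and 7.59 to 16.0 CPM in the control libraries, where CPM is counts scaled to a common library size, corrected for composition (TMM). Mkl2, the gene of Mrtf-b, had 15.2 to 28.1 CPM in dKO and 30.1 to 44.1 CPM in control. Neither range overlapped between genotypes, and how many of all tested genes separate in this way was not counted. In dKO against control Mkl1 was called, with edgeR adjusted p of 0.00182 after TAC, 0.0409 after sham and 0.000191 over both surgeries. Mkl2 was called in none of these comparisons, with log2 changes of -0.54, -0.88 and -0.71 and edgeR adjusted p of 0.518, 0.507 and 0.0887. The lower level of Mkl2 thus rests on the ranges alone, and its deleted part was not looked at on its own. In 1 dKO library of each surgery the counts depended on transcript length otherwise than in the other libraries of the group. The rank correlation across 9773 genes between exon length and the difference from the group's other libraries was -0.622 in dKO sham replicate 1 and -0.593 in dKO TAC replicate 2, and lay between -0.105 and 0.117 in the control libraries. In the remaining dKO libraries it was 0.455 to 0.644, where the mean compared with includes the shifted library. Results on dKO mice are therefore also given without these 2 libraries. The labelled cell type was checked by 8 cardiomyocyte markers, whose summed level was 34350 to 78240 CPM in the dKO libraries and 33000 to 56840 CPM in the control libraries. A list of 5 atrial markers summed to 16.4 to 20.2 CPM in dKO TAC and 7.07 to 157.5 in dKO sham. In control TAC it summed to 78.6 to 222.7 CPM and in control sham to 7.07 to 48.0. After TAC the atrial sums were thus all lower in dKO than in control. The part of atrial cells in the actin levels was not tested.

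Acta1 (chr8:123891769-123894751, minus strand, GRCm38) was called in each of the pairwise comparisons of genotype and surgery. Its level in the libraries of replicates 1, 2 and 3 was 63.1, 261 and 107 CPM in dKO TAC, 8.97, 8.20 and 13.4 CPM in dKO sham, 3155, 3539 and 1658 CPM in control TAC, and 168, 364 and 158 CPM in control sham. Within each genotype every TAC library lay above every sham library, and within each surgery every dKO library lay below every control library. The dKO TAC libraries overlapped the control sham libraries, with means of 143.8 CPM in dKO TAC and 230 CPM in control sham (not tested). This overlap came only from dKO TAC replicate 2, a library of shifted length dependence. The other dKO TAC libraries lay below all control sham libraries.

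After TAC, Acta1 averaged 143.8 ± 104 CPM in dKO and 2784 ± 994 CPM in control (SD, n = 3 each), and it was 19.4-fold lower in dKO. The log2 change was -4.27 ± 0.56 (SE), with an edgeR quasi-likelihood, Benjamini-Hochberg adjusted p of 0.00785. After sham, Acta1 averaged 10.2 ± 2.79 CPM in dKO and 230 ± 116 CPM in control (SD, n = 3 each), 22.6-fold lower in dKO, at a log2 change of -4.50 ± 0.57 and an edgeR adjusted p of 0.0102. Acta1 was thus called in both comparisons. It was the only 1 of the 6 actins called after TAC, where 0.428% of all tested genes were called, and the only 1 called after sham, where 0.068% were. Over both surgeries the log2 change of dKO against control was -4.39 ± 0.40, with an edgeR adjusted p of 0.000191. Without the 2 libraries of shifted length dependence the log2 change was -5.03 after TAC (edgeR adjusted p of 0.00315) and -4.41 after sham (0.0303). The call after TAC was lost without dKO TAC replicate 3, at -4.09 and an edgeR adjusted p of 0.0708. The call after sham was lost without dKO sham replicate 1, at -4.41 and an adjusted p of 0.0537, and without dKO sham replicate 2, at -4.36 and 0.0888. The call over both surgeries held in each of 20 alternatives.

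Acta1 rose with TAC in both genotypes. In dKO it was 14.1-fold higher after TAC than after sham, a log2 change of 3.82 ± 0.56 with an edgeR adjusted p of 0.0041, in a comparison that called 7.39% of all tested genes and 1 of the 6 actins. In control it was 12.1-fold higher after TAC, at 3.60 ± 0.55 and an edgeR adjusted p of 0.0125, where 2.25% of genes and again 1 of the 6 actins were called. The difference between these log2 changes, dKO minus control, was 0.22 ± 0.70 (edgeR adjusted p of 0.948). With an SE of this size the TAC response in dKO may be smaller or larger than in control. In CPM the mean after TAC exceeded that after sham by 133.6 in dKO and by 2554 in control. Over both genotypes the log2 change was 3.71 ± 0.39, with an edgeR adjusted p of 0.000288, in a comparison that called 16.6% of genes and 1 of the 6 actins.

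The dKO call for TAC held in each of 21 alternatives, with log2 changes from 2.98 to 4.18. The lowest of these values, with an edgeR adjusted p of 0.0116, came without the 2 libraries of shifted length dependence. The control call for TAC was lost when control TAC replicate 2 was left out (edgeR adjusted p of 0.0563), as it was for control sham replicate 1 (0.088) and control sham replicate 3 (0.0989), and in a fit of the control groups alone (0.0775), at log2 changes of at least 3.39.

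**Figure D2:**
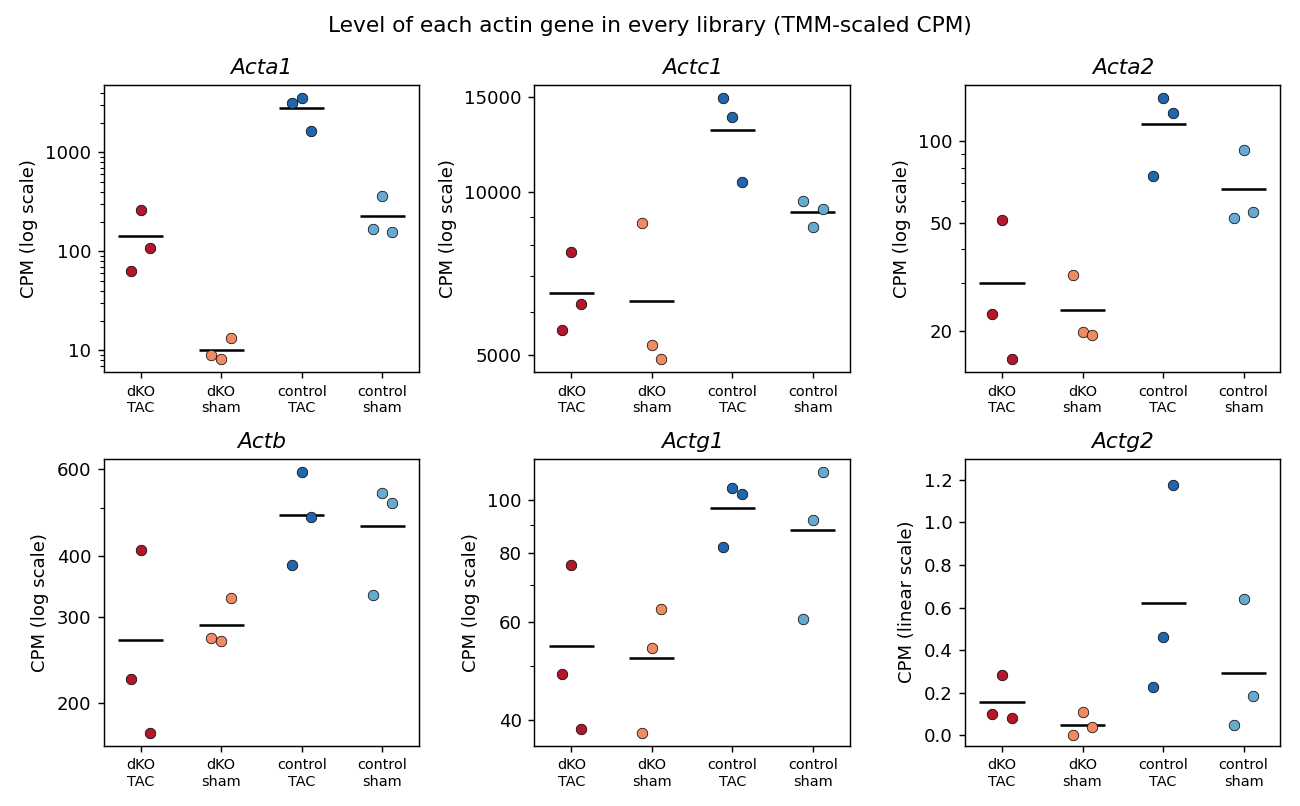
TMM-scaled CPM of each actin gene in every library, by group, on a log scale for 5 genes and a linear scale for Actg2; points are libraries and bars are group means (n = 3). Acta1 lies at 8.20 to 13.4 CPM in dKO sham and at 1658 to 3539 CPM in control TAC. Of the dKO TAC libraries only replicate 2 overlaps the control sham libraries.

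Actc1 (chr2:114047282-114053548, minus strand), which encodes the main thin filament actin of the adult heart, had by far the highest level of the family. It had 5554, 7768 and 6201 CPM in dKO TAC, 8773, 5215 and 4916 CPM in dKO sham, 14949, 13814 and 10443 CPM in control TAC, and 9617, 8639 and 9306 CPM in control sham. All dKO TAC libraries were below all control TAC libraries, and all control TAC libraries were above all control sham libraries. In the dKO groups the highest library was 1 of the libraries with a shifted length dependence, dKO sham replicate 1, and the groups overlapped.

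By edgeR none of these differences in Actc1 passed the test when all libraries were used without length offsets. After TAC the means were 6508 ± 1139 CPM in dKO and 13068 ± 2344 CPM in control (SD, n = 3 each), a log2 change of -1.01 ± 0.29 and an edgeR adjusted p of 0.215. After sham the means were 6301 ± 2146 CPM in dKO and 9187 ± 500.0 CPM in control, at -0.54 ± 0.29 and an edgeR adjusted p of 0.507. The change with TAC was 0.05 ± 0.29 in dKO and 0.51 ± 0.29 in control, with edgeR adjusted p of 0.931 and 0.414, and the difference between them was -0.46 ± 0.41 (edgeR adjusted p of 0.843). Without dKO sham replicate 1 the dKO difference after TAC was called at -1.01, with an edgeR adjusted p of 0.0418. It was also called without both libraries of shifted length dependence, at -1.15 and 0.0279 (after sham, -0.86 and 0.385), with length offsets, at -1.05 and 0.0464, and by DESeq2, at -1.01 and 0.00641.

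Over both surgeries Actc1 averaged 6404 CPM in dKO and 11128 CPM in control, a log2 change of -0.77 ± 0.20 with an edgeR adjusted p of 0.146. This comparison was called in 5 of 20 alternatives: by DESeq2 at -0.77 (adjusted p of 0.00204), with length offsets at -0.999 (0.00764), with length offsets and the replicate block at -0.99 (0.0226), without dKO sham replicate 1 at -0.93 (0.022) and without both shifted libraries at -1.01 (0.017). Over both genotypes the log2 change with TAC was 0.28 ± 0.20 (edgeR adjusted p of 0.368), called with length offsets at 0.48 (0.0433).

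The makeup of actin RNA was expressed as each gene's counts per length of its exons over the sum for the 6 genes. Acta1 made up 1.15%, 3.28% and 1.75% of actin RNA in dKO TAC, 0.105%, 0.159% and 0.272% in dKO sham, 17.9%, 20.6% and 13.8% in control TAC, and 1.76%, 4.05% and 1.68% in control sham. Control TAC stood apart from every other group, the dKO TAC and control sham libraries overlapped, and the dKO sham libraries were the lowest of all. The mean shares were 2.06 ± 1.10% in dKO TAC, 0.179 ± 0.085% in dKO sham, 17.4 ± 3.42% in control TAC and 2.497 ± 1.35% in control sham (SD, n = 3 each). Actc1 made up 94.8 ± 1.83% of actin RNA in dKO TAC, 96.1 ± 1.34% in dKO sham, 79.8 ± 3.13% in control TAC and 93.6 ± 2.19% in control sham. Actb made up 2.31 ± 0.67% in dKO TAC, 2.87 ± 1.01% in dKO sham, 1.84 ± 0.54% in control TAC and 2.85 ± 0.75% in control sham. Actg1 lay at group means of 0.372% to 0.550%, Acta2 at 0.269% to 0.543%, and Actg2 at or below 0.00453%.

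The Acta1 share differed between TAC and sham by 1.88 points in dKO and by 14.9 points in control, and between dKO and control by -15.4 points after TAC and by -2.32 points after sham. None of these 4 comparisons had overlapping libraries, and each gave an exact two-sided permutation p of 0.1, the smallest that 3 libraries against 3 allow. The difference between the TAC effects, dKO minus control, was -13.06 points, a description with no test. Over both surgeries the mean share was 1.12% in dKO and 9.97% in control, and over both genotypes it was 9.75% after TAC and 1.34% after sham. With labels permuted within the other factor, each of these differences gave an exact permutation p of 0.005, the smallest possible, and 0.0525 after Benjamini-Hochberg adjustment over 42 share tests, so neither passed 0.05. Both had an adjusted exact permutation p of 0.042 when control TAC replicate 1 or control sham replicate 1 was left out. In these settings the share of Acta2 or of Actc1, respectively, reached the same adjusted p for dKO over both surgeries. The adjusted value of tied tests depends on how many shares reach the smallest p, so this shift says nothing more about Acta1. No other share passed over all libraries. Without the 2 dKO libraries of shifted length dependence the difference between dKO and control was -15.99 points after TAC and -2.28 points after sham, and that between TAC and sham in dKO was 1.23 points. Without control sham replicate 2, the highest of its group, the difference after sham was -1.54 points. Within the sarcomeric pair alone, Acta1 made up 2.13% in dKO TAC, 0.186% in dKO sham, 17.9% in control TAC and 2.61% in control sham.

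The sarcomeric actins were also compared as a ratio, which needs no sum. There were 28.3 to 83.5 cardiac actin RNAs per skeletal actin RNA, per length, in dKO TAC, 349 to 928 in dKO sham, 3.71 to 5.98 in control TAC and 22.5 to 56.0 in control sham. The groups of the TAC comparison did not overlap in either genotype, and neither did the genotypes within a surgery.

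**Figure D3:**
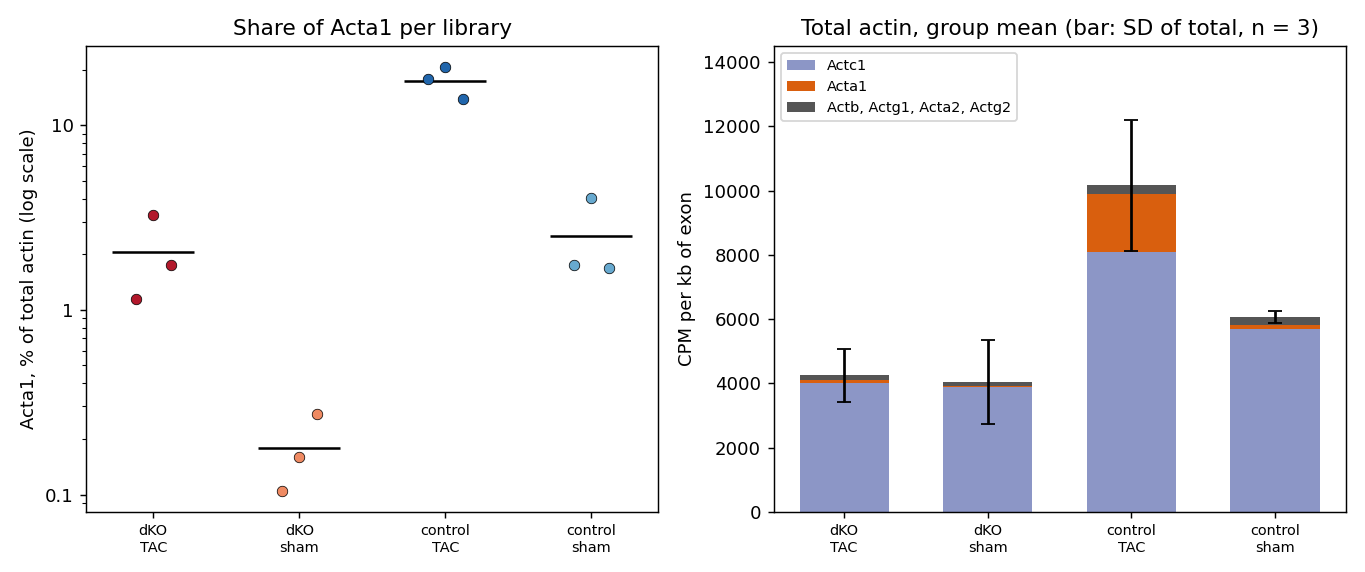
Left, Acta1 as a percentage of total actin per exon length in each library (log axis, bars are group means); right, mean level of total actin in CPM per kb of exon, divided into Actc1, Acta1 and the other actins, with the SD of the total (n = 3). The Acta1 share is 13.8% to 20.6% in control TAC and 0.105% to 0.272% in dKO sham, and total actin is highest in control TAC.

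Total actin RNA, summed per length over the 6 genes, was 4250 ± 827 CPM per kb in dKO TAC, 4039 ± 1318 in dKO sham, 10160 ± 2042 in control TAC and 6063 ± 190 in control sham (SD, n = 3 each). As a sum over chosen genes it was not tested. The dKO TAC libraries (3586 to 5176 CPM per kb) lay below the control TAC libraries (7810 to 11500) and the dKO sham libraries (3202 to 5558) below the control sham libraries (5854 to 6224). The mean after TAC exceeded that after sham by 211 CPM per kb in dKO and by 4096 in control. In control Actc1 made up 58.6% and Acta1 40.6% of this difference. In dKO Actc1 made up 60.4% and Acta1 41.2%, but of a difference smaller than the SD of either dKO group. The dKO TAC range lay inside the dKO sham range, so the parts in dKO cannot be set against those in control. In dKO the Actc1 part rests on a log2 change smaller than its SE. In raw counts the actins took 0.632% to 1.03% of a dKO TAC library, 0.541% to 0.739% of a dKO sham library, 1.43% to 1.99% of a control TAC library and 0.919% to 0.961% of a control sham library.

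Acta2 (chr19:34241090-34255590, minus strand) encodes smooth muscle alpha-actin, which in the heart marks smooth muscle cells and activated fibroblasts and is also made by immature cardiomyocytes. It had 23.0, 51.2 and 15.7 CPM in dKO TAC, 32.1, 19.8 and 19.3 CPM in dKO sham, 74.8, 145 and 127 CPM in control TAC, and 52.0, 93.2 and 54.9 CPM in control sham. All 6 dKO libraries lay below all 6 control libraries. How many of all tested genes separate in this way was not counted, here or for the separations of the other actins. Over both surgeries Acta2 averaged 26.9 CPM in dKO and 91.1 CPM in control. It fell by 1.72 ± 0.30 on the log2 scale, with an edgeR adjusted p of 0.0218, so that 2 of the 6 actins, Acta1 and Acta2, were called in a comparison that called 0.585% of all tested genes.

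The call of Acta2 over both surgeries was lost in 7 of the 12 fits that left out 1 library. These were control TAC replicates 2 and 3, control sham replicate 2, dKO TAC replicates 1 and 3, and dKO sham replicates 2 and 3, with edgeR adjusted p from 0.0529 to 0.0853 and log2 changes from -1.67 to -1.55. Within a surgery Acta2 was not called: the log2 change was -1.95 ± 0.42 after TAC (edgeR adjusted p of 0.0802) and -1.49 ± 0.42 after sham (0.507). After TAC it was called in 7 of 21 alternatives. With all libraries it passed by DESeq2 at -1.96 (adjusted p of 0.000665), and by edgeR without the filter at -1.94 (0.00198), with length offsets at -2.05 (0.0239) and with length offsets and the replicate block at -2.10 (0.00966). It also passed with an edgeR adjusted p of 0.0235 without dKO TAC replicate 2, of 0.038 without dKO sham replicate 1 and of 0.00785 without both, at -2.57. After sham it was -1.77 without both (0.167), and -1.51 and called without the filter (0.0457). The log2 change of Acta2 with TAC was 0.34 ± 0.41 in dKO and 0.79 ± 0.41 in control, with edgeR adjusted p of 0.62 and 0.367.

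Because Acta2 can come from other cells, smooth muscle and pericyte markers were set beside it. In such bulk samples fewer cells of a type and less RNA per cell cannot be told apart. The summed level of these 13 markers was 1053 to 1220 CPM in dKO TAC, 994 to 1788 in dKO sham, 1325 to 1603 in control TAC and 1517 to 2021 in control sham. After TAC the dKO sums were thus all below the control sums. None of the 13 was called by edgeR in dKO against control after TAC or after sham (2 and 1 at an unadjusted p under 0.05), and 11 of 13 had a negative log2 change after TAC, with a median of -0.31 beside -0.03 over all tested genes. No marker of this list was at 0 in any library. Fibroblast markers summed to 3003 to 4112 CPM in dKO TAC, 400 to 793 in dKO sham, 1224 to 10310 in control TAC and 476 to 956 in control sham, and 5 of 11 rose with TAC in each genotype, in comparisons that called 7.39% of all tested genes in dKO and 2.25% in control in either direction. In dKO against control, 10 of 11 fibroblast markers had a negative log2 change after TAC, with a median of -0.58 beside -0.03 over all tested genes. After sham 6 of 11 were negative, with a median of -0.02 beside 0.02. None was called by edgeR in either comparison (1 after TAC and 0 after sham at an unadjusted p under 0.05). The part of these cells in the level of Acta2 was not tested.

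Actb (chr5:142903115-142906754, minus strand) and Actg1 (chr11:120345690-120348542, minus strand) encode the beta and gamma actins of the cytoskeleton, which every cell makes. Actb had 224, 411 and 174 CPM in dKO TAC, 271, 268 and 328 CPM in dKO sham, 382, 593 and 479 CPM in control TAC, and 332, 536 and 513 CPM in control sham. Actg1 had 48.3, 76.2 and 38.6 CPM in dKO TAC, 37.9, 54.0 and 63.5 CPM in dKO sham, 82.0, 105 and 102 CPM in control TAC, and 60.9, 91.7 and 112 CPM in control sham. For Actb all dKO sham libraries were below all control sham libraries, and for Actg1 all dKO TAC libraries were below all control TAC libraries, while the groups overlapped in the remaining comparisons of dKO with control and in both comparisons of TAC with sham.

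With all libraries edgeR called neither cytoplasmic actin with TAC or between genotypes, without length offsets and with the filter on low counts. In dKO the log2 change with TAC was -0.10 ± 0.31 for Actb and 0.07 ± 0.29 for Actg1, and in control it was 0.07 ± 0.31 for Actb and 0.13 ± 0.29 for Actg1. Against control, dKO libraries had a log2 change in Actb of -0.85 ± 0.31 after TAC and -0.67 ± 0.31 after sham, with edgeR adjusted p of 0.39 and 0.507. For Actg1 it was -0.83 ± 0.29 after TAC and -0.77 ± 0.29 after sham, with edgeR adjusted p of 0.363 and 0.507. Over both surgeries Actb averaged 279 CPM in dKO and 472 CPM in control, at -0.76 ± 0.22 (edgeR adjusted p of 0.192), and Actg1 53.1 CPM in dKO and 92.4 CPM in control, at -0.80 ± 0.21 (0.134). Each was called over both surgeries in 4 of 20 alternatives. With all libraries Actb was called by DESeq2 (adjusted p of 0.0326) and by edgeR with length offsets and the replicate block (0.0395), and Actg1 by DESeq2 (0.0138), by edgeR without the filter (0.0391) and with length offsets and the block (0.045). Actb was also called without dKO TAC replicate 2, at -0.96 (edgeR adjusted p of 0.0487).

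The difference after TAC was larger without the 2 dKO libraries of shifted length dependence. In that fit dKO against control after TAC was called for Actb at -1.28 (edgeR adjusted p of 0.0331) and for Actg1 at -1.15 (0.0371). The fit called 508 of 14923 genes and 5 of the 6 actins, all but Actg2. Over both surgeries the same fit called Actb at -0.95 and Actg1 at -0.87, with edgeR adjusted p of 0.0399 and 0.0439. The ratio of Actb to Actg1 per length overlapped between all groups, at 4.81 ± 0.47 in dKO TAC, 5.72 ± 1.20 in dKO sham, 4.95 ± 0.56 in control TAC and 5.25 ± 0.65 in control sham (SD, n = 3 each). The level of Actg1 in these ratios carries the uncertainty from its pseudogenes.

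Cytoplasmic actins are made in quantity by cells other than cardiomyocytes, so markers of 2 such cell types were set beside them. Endothelial markers summed to 1001 to 1578 CPM in dKO TAC, 1018 to 1990 in dKO sham, 1445 to 1979 in control TAC and 1198 to 1783 in control sham. Macrophage markers summed to 246 to 452 CPM in dKO TAC, 226 to 279 in dKO sham, 203 to 675 in control TAC and 144 to 311 in control sham. In either list all 10 markers had a negative log2 change in dKO after TAC, each with a median of -0.38 beside -0.03 over all tested genes. After sham 3 of 10 endothelial and 4 of 10 macrophage markers were negative, with medians of 0.08 and 0.27 beside 0.02. By edgeR none was called in these comparisons, 0 had an unadjusted p under 0.05, and no marker was at 0 in any library. Their part in the levels of Actb and Actg1 was not tested.

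Actg2 (chr6:83512905-83536265, minus strand), the smooth muscle gamma-actin best known from gut and bladder, was at or near the limit of counting. It had 3, 9 and 2 counts in dKO TAC, 0, 3 and 1 in dKO sham, 6, 13 and 36 in control TAC, and 1, 15 and 5 in control sham. Most dKO libraries were at or under a floor of 3 counts, so no fold change is given and it is left out of the medians over actins. It was called in none of the comparisons by edgeR.

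After TAC the 5 actins other than Actg2 all had a negative log2 change in dKO, with a median of -1.01 beside -0.03 over all tested genes, and all 5 had an unadjusted edgeR p under 0.05 though only Acta1 passed the adjustment. After sham all 5 log2 changes were negative as well, with a median of -0.77 beside 0.02. For these 5 actins the sign was negative in each of 21 alternatives in both comparisons, those with other scalings included. The values are not independent, because the genes were measured in the same libraries. Their changes with TAC had medians of 0.07 in dKO and 0.51 in control, beside -0.01 and 0.00 over all tested genes, and only Acta1 was called in either. None of the 6 actins was called for a TAC response that differed between genotypes, by edgeR, DESeq2 or limma-voom, and none had an unadjusted edgeR p under 0.05. Of all 14712 genes edgeR called 0, or 0% (697 at an unadjusted p under 0.05), limma-voom 0 and DESeq2 11. Without the filter edgeR called 5, without dKO TAC replicate 2 it called 1 and without both shifted libraries 2, none of them an actin.

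**Figure D4:**
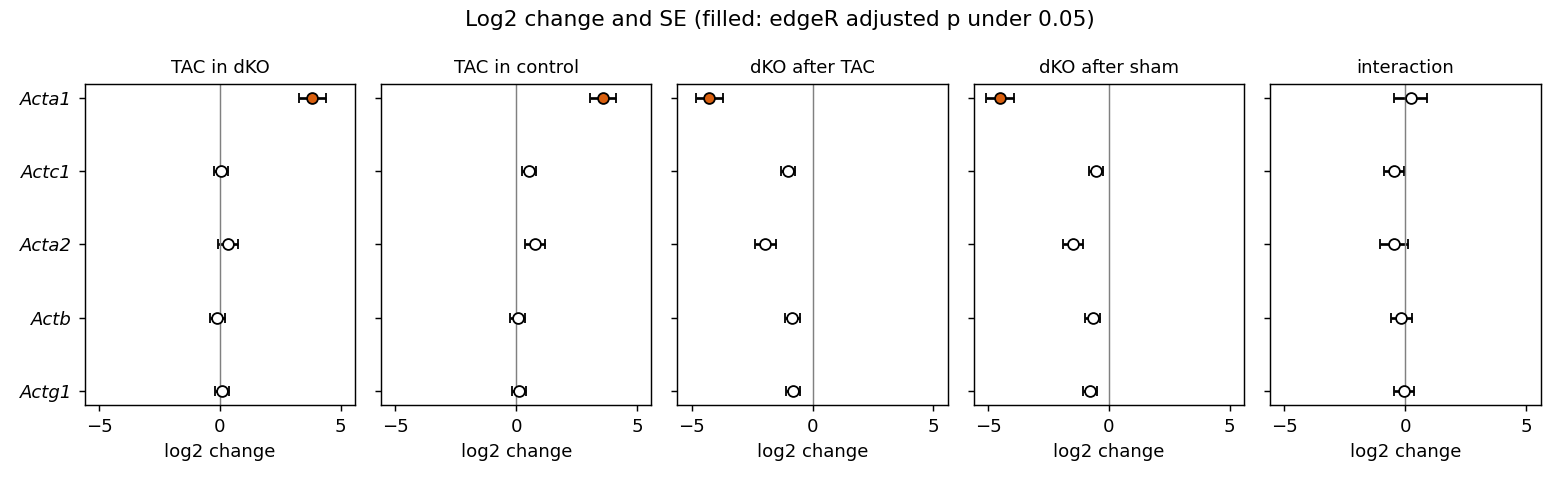
Log2 change and its SE for 5 actins in TAC against sham in dKO and in control, dKO against control after TAC and after sham, and the difference of the TAC effects (interaction, dKO minus control). Filled points have an edgeR adjusted p under 0.05: Acta1 at 3.82, 3.60, -4.27 and -4.50, and no actin in the interaction.

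By level per length, Actc1 was first in every group with no overlap. In dKO TAC, Actb at 100.6 and Acta1 at 93.6 CPM per kb overlapped and came next. In dKO sham the order after Actc1 was Actb at 108, Actg1 at 19.5, Acta2 at 10.8 and Acta1 at 6.63 CPM per kb, with overlap of Actg1 and Acta2 only. In control TAC Acta1 was second at 1812 CPM per kb, above Actb at 181, Acta2 at 52.6 and Actg1 at 36.3. In control sham Actb at 172 and Acta1 at 149.8 CPM per kb again overlapped. Acta2 and Actg1 overlapped in all 4 groups and Actg2 was last in each.

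The genes whose pattern over the 12 libraries came closest to an actin were found among 9660 genes by the root mean square difference of centred log2(CPM + 1). Actb and Actg1 were each other's nearest, at 0.18, beside a root mean square of 0.52 for either gene's own variation. Nearest to Actc1 were Hacd1 at 0.16, Abracl at 0.28 and Srf itself at 0.30, beside 0.50. Srf encodes the DNA-binding partner of the MRTFs, and averaged 55.4 CPM in dKO TAC, 71.1 in dKO sham, 94.6 in control TAC and 96.9 in control sham. Nearest to Acta2 were Mkl1 at 0.41, Cnn2 at 0.44 and Myl9 at 0.49, beside 1.03. Mkl1 is targeted in dKO mice, as is Mkl2. Its level follows the deletion, so its nearness to Acta2 describes a shared difference between genotypes and does not show regulation. Cnn2 and Myl9 encode a calponin and a regulatory light chain of nonmuscle and smooth muscle myosin. Acta1 had no near neighbour: the closest, Ndufs5, Acta2 and Nppb, stood at 2.02, 2.09 and 2.09, beside a root mean square of 2.87 for Acta1 itself. Ndufs5 averaged 0.956 CPM in dKO TAC, 1.66 in dKO sham, 37.9 in control TAC and 41.9 in control sham. Its means thus differed by genotype and did not rise with TAC, and the cause was not tested.

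Other genes of the actin system were taken from lists. Of 19 SRF targets that are not actins, 1 fell in dKO after TAC, Cnn2 at -1.56 ± 0.28 (edgeR adjusted p of 0.0376). This comparison called 0.428% of all tested genes. The log2 change was negative for 14 of the 19, with a median of -0.33 beside -0.03 over all tested genes. After sham none was called by edgeR (1 at an unadjusted p under 0.05), and 0.068% of all tested genes were. There 13 of 19 were negative, with a median of -0.22 beside 0.02. With TAC, where 7.39% of all tested genes were called in dKO and 2.25% in control, 4 of the 19 rose in dKO, among them Ankrd1, a load-responsive nuclear and sarcomeric protein, at 3.40 ± 0.32, Ctgf at 2.80 ± 0.57 and Fhl1 at 1.31 ± 0.30. In control 4 rose as well, and the 3 with the smallest p were Ankrd1 at 1.75 ± 0.30, Fhl1 at 1.49 ± 0.30 and Cnn1 at 4.81 ± 0.98. Cnn1 averaged 11.0 CPM in control TAC and only 0.386 CPM in control sham, so the size of its change rests on few sham counts. It is also in the list of smooth muscle markers.

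Among 13 genes for monomer binding and turnover, none was called by edgeR in dKO against control within a surgery (1 after TAC and 2 after sham at an unadjusted p under 0.05). Over both surgeries Dstn, the depolymerising factor destrin, fell by 0.84 ± 0.13 on the log2 scale, with an edgeR adjusted p of 0.00955. With TAC in dKO, Cfl2, the muscle cofilin, rose at 0.91 ± 0.20, Wdr1, which helps cofilin, rose at 0.71 ± 0.17, and Gsn, the severing protein gelsolin, fell by 1.53 ± 0.29, while none of the 13 was called in control (6 at an unadjusted edgeR p under 0.05). These are 3 of 13 beside the 7.39% of all tested genes called with TAC in dKO. Of 18 genes for nucleation, capping and filament length 1 was called with TAC in dKO, a share near that background, Actr3 of the Arp2/3 complex at 0.75 ± 0.19. Of 11 thin filament partners 1 was, again near it, the slow skeletal troponin I gene Tnni1 at 3.20 ± 0.72. Of 17 measured genes for actin folding and modification 3 rose with TAC in dKO: Mical2 at 1.14 ± 0.23 and Mical1 at 1.04 ± 0.28, whose products oxidise actin filaments, and Cct8 of the CCT chaperonin at 0.68 ± 0.16. None of these 3 lists had an edgeR call in control with TAC, where the members at an unadjusted p under 0.05 numbered 1 for nucleation and capping, 4 for the thin filament and 1 for folding. Nor did they have one in dKO against control after TAC (0, 2 and 2) or after sham (1, 1 and 3). That TAC called genes in 1 genotype does not show that the genotypes differ, and with all libraries edgeR called no gene of these lists for the interaction.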

How the data were processed

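The deposited table gives raw counts per gene by the authors, made per the submitters' processing notes with Trimmomatic 0.36, STAR 2.5.2b, Subread 1.5.0p3 and featureCounts on GRCm38.p5; the sources used here give no settings. Libraries were stranded and poly(A)-selected, per the labels' protocols. The labels give 10 weeks as the age at surgery, the series text 8. Counts were tested with edgeR 4.0.16 (R 4.3.3; quasi-likelihood F test, TMM, filterByExpr by group) in 1 fit of 12 libraries with 8 residual degrees of freedom, and p-values were adjusted (Benjamini-Hochberg) over 14712 genes, with calls under 0.05. An SE is the log2 change over the square root of F. Exon lengths came from GENCODE M21. Shares were compared by exact permutation tests. Named genes were the actins, the targeted genes, the 3 nearest genes to each actin above 5 CPM, and up to 3 called genes per list and comparison. Members and lists were chosen with earlier results of these data known. Alternatives included DESeq2 1.42.0 and limma-voom (limma 3.58.1). Fits were tested on simulated data.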

Additional observations from a re-analysis of the deposited data

How the results depend on the processing

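Leaving out 1 library gave 0 to 1 called actins for TAC in control, 0 to 3 for dKO after TAC, 0 to 1 for dKO after sham and 1 to 3 for dKO over both surgeries, beside 1, 1, 1 and 2 with all libraries. For dKO after TAC the count was 3 by DESeq2, 2 without the filter, 5 without the length-shifted dKO libraries, 3 with length offsets and 2 with length offsets and the replicate block. For dKO after sham it was 2 without the filter, and for TAC in control 0 with only its groups fitted. For dKO over both surgeries it was 5 by DESeq2, without the length-shifted libraries, and with length offsets and block. For TAC over both genotypes it was 2 with length offsets, with or without the block. The block alone changed no count. Same-numbered libraries correlated between -0.693 and 0.537, with 11 of 18 pairs over 0.1. Differently numbered libraries correlated between -0.647 and 0.659, with 13 of 36 pairs over 0.1. As both ranges ran from negative to positive, the main fit did not pair the libraries by number. These values cannot exclude a pairing. The share of Acta1 lay between -9.751 and -8.05 points for dKO over both surgeries when 1 library was left out, and between 7.613 and 9.314 for TAC over both genotypes. Within the sarcomeric pair these ranges were -10.00 to -8.27 and 7.80 to 9.53.

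Some values that were not called changed sign. Without the length-shifted libraries, log2 changes with TAC in dKO were -0.0149 for Acta2 and -0.435 for Actg1, that of Actg1 over both genotypes was -0.154, and the Acta1 interaction was -0.615. In that setting the share of Actc1 with TAC in dKO differed by 0.464 points, that of Acta2 by -0.0362, and that of Actg1 in dKO after sham by 0.126. With length offsets, and with the replicate block added, Actb gave 0.0108 and 0.0012 with TAC in dKO and 0.0459 and 0.0435 over both genotypes, and the Actg1 interaction 0.0275 and 0.0688. The Acta1 interaction was -0.0499 by limma-voom and -0.112 with the replicate block.

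Leaving out 1 library, log2 changes with TAC in dKO ranged from -0.107 to 0.36 for Actc1, from -0.287 to 0.648 for Acta2, from -0.532 to 0.14 for Actb and from -0.247 to 0.272 for Actg1. With TAC in control they ranged from -0.123 to 0.218 for Actb and from -0.0909 to 0.338 for Actg1, and over both genotypes from -0.226 to 0.11 and from -0.0564 to 0.204. The interaction ranged from -0.533 to 0.576 for Acta1, from -0.612 to 0.0602 for Actb and from -0.381 to 0.142 for Actg1. Shares of Acta2 ranged from -0.0333 to 0.102 points with TAC in dKO, from -0.062 to 0.161 in control and from -0.0119 to 0.0996 over both genotypes. Those of Actg1 ranged from -0.2004 to 0.0442 with TAC in dKO, from -0.119 to 0.126 in dKO after sham and from -0.00809 to 0.114 over both surgeries, and those of Actb from -0.448 to 0.556 in dKO after sham. The cause was not tested.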
